A study of Mus musculus with 7 samples.

Results

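The genes described here are the members of the FGF pathway in the mouse: 19 Fgf genes, of which Fgf11, Fgf12 and Fgf14 encode intracellular homologous factors and the others ligands, the receptor genes Fgfr1 to Fgfr4, the feedback inhibitor genes Spry1, Spry2, Spry4 and Spred1 to Spred3, the ERK phosphatase genes Dusp4 and Dusp6, and the ERK target genes Etv4, Etv5 and Egr1. Open chromatin near these 34 genes was compared between wild-type (WT) EpiLCs and EpiLCs that lack Smad2 and Smad3 (Smad2/3 DKO). A site belongs to a gene when its midpoint lies within 50 kb of a curated RefSeq transcriptional start site (TSS) of that gene. This rule gave 188 of the 75880 sites listed for the study. Every gene had at least 1 site and none had more than 10. The rule used position only, with no measured value.

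EpiLCs are epiblast-like cells obtained from ESCs, here after 48 h in 12 ng/ml Fgf2 and 20 ng/ml activin A, so both genotypes were exposed to an FGF ligand and to the ligand that signals through Smad2 and Smad3. WT cells were clone CCE and Smad2/3 DKO cells were clone KT15.1F6, both 129/Sv//Ev and harvested at day 2. The Smad3 promoter had been targeted in Smad2-/- ESCs to make the DKO line. ATAC-seq, in which the Tn5 transposase inserts adapters into open DNA, was performed on 75000 cells in 2 technical replicates for each of 3 differentiations per genotype, and 100 ng of WT genomic DNA treated with Tn5 was the control for site calling. With 1 clone per genotype, a difference between the clones and the effect of the genotype cannot be told apart.

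The deposited values are 1 mean per genotype and site, the concentration, which is the log2 of the mean normalized reads of the 3 differentiations. A value per library, the spread between differentiations and the depth per library are not known from these values, so no difference below has an error or a test. The difference is the DKO concentration minus the WT concentration, and a site is called lower or higher where the means differ by more than 1.5-fold (0.585 on the log2 scale). Counts of such sites near the FGF pathway genes are set beside the same count over all listed sites. A concentration of 4, equal to 16 normalized reads, was the least at which single sites are described in full.

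FGF ligands bind receptor tyrosine kinases and activate the Ras, Raf, MEK and ERK kinase cascade. ERK signaling induces its own brakes, the Sprouty and Spred proteins and the dual-specificity phosphatases, together with Etv transcription factors and the immediate early gene Egr1. In the early embryo Fgf4 from the epiblast directs extra-embryonic lineages, FGF signaling drives pluripotent cells out of the naive state, and Fgf8 acts with Nodal, a Smad2/3 ligand, at gastrulation.

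The sites on which the results turn are shown first, in lower case on the plus strand of mm10, with motif matches in capitals. The motifs were CAGACA (Smad), GGATTA (Otx2), CATTGT (Sox), GGAATG (Tead), CCGGAAG (Ets), TGANTCA (AP-1), the POU octamer ATGCAAAT and TGTGGATT (FoxH1, which can share letters with GGATTA), searched on both strands. A match describes the letters and is not a binding site. The 3 sites shown first were more open in WT. Those of Fgf14 and Etv5 have the largest such differences among sites with a concentration of at least 5, and the Fgf4 and Fgf15 site was chosen after its value was seen. The Fgf14 and Etv5 windows are the central 300 bases and the Fgf4 and Fgf15 site is shown whole.

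Fgf4 and Fgf15, chr7:144902070-144902300, intergenic: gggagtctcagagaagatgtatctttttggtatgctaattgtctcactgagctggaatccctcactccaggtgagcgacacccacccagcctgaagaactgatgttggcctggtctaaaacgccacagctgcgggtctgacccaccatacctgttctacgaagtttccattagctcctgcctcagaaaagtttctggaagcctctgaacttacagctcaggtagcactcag

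Fgf14, chr14:124709531-124709830, intergenic: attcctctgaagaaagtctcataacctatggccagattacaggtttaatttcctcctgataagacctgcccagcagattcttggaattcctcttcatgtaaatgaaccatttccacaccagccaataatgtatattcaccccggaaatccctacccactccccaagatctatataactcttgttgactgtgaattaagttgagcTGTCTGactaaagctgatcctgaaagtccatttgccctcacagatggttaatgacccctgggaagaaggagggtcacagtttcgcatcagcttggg

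Etv5, chr16:22406081-22406380, intron: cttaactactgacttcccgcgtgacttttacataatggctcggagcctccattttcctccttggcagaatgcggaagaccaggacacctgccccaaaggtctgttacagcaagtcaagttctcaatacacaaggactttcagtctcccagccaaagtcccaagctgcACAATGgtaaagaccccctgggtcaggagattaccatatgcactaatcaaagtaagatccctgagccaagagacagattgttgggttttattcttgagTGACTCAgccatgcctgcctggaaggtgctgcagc

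The following sites were more open in Smad2/3 DKO EpiLCs. The Spred2 site has a concentration of at least 5, at which larger differences were found near Spry2 and Egr1, whose values are given below without sequence. The Etv5 and Spry1 sites, of lower concentration, were chosen after their values were seen. The Spred2 site is shown whole and the others by their central 300 bases.

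Spred2, chr11:19911230-19911510, intergenic: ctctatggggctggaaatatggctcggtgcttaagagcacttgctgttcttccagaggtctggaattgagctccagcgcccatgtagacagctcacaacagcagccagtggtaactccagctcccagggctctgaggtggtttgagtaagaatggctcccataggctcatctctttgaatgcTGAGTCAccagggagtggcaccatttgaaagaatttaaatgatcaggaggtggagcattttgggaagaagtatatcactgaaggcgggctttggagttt

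Etv5, chr16:22411836-22412135, intron: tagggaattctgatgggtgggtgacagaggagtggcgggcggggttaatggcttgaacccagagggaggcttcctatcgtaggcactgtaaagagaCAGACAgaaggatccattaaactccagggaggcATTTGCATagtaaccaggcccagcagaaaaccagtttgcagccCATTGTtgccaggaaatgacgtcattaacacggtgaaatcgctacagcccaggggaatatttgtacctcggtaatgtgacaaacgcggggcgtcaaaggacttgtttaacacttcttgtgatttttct

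Spry1, chr3:37642996-37643295, coding exon: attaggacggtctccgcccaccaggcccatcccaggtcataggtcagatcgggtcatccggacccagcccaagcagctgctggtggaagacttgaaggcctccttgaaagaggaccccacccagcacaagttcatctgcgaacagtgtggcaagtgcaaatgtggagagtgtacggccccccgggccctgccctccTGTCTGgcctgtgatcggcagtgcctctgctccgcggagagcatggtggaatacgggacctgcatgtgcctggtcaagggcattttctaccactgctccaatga

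The Etv5 site that was more open in DKO holds a match to the POU octamer, to the Sox string and to the Smad string, and the Etv5 site that was less open holds a Sox and an AP-1 match. The Fgf4 and Fgf15 site holds no match within its own letters. The last sequence is the 250 bases before the Dusp6 TSS, from the RefSeq promoter table (GRCm38.p6, chr10:99262981-99263230), which lie within the site of the highest concentration near any of the 34 genes. It holds 16 CpG dinucleotides and none of the motifs.

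Dusp6 promoter: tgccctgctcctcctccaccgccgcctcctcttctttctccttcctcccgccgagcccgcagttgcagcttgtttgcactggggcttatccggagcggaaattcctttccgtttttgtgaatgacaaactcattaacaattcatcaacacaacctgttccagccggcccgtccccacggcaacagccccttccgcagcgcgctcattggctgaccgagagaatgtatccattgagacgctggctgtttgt

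Of the 188 sites, 19 (10.1%) were lower and 19 (10.1%) were higher in Smad2/3 DKO EpiLCs. Over all listed sites 16.0% were lower and 8.51% were higher. The median difference was 0.04 near the FGF pathway genes (quartiles -0.23 and 0.23) and -0.08 over all sites (quartiles -0.39 and 0.20). A lower DKO mean was found at 43.6% of the FGF pathway sites and at 57.4% of all sites. Centred on the median of all sites, the FGF pathway counts became 13 lower and 26 higher. Centring raises the difference of every listed site alike, and the matching count over all sites was not made. Among sites with a concentration of at least 4, 12 of 157 were lower and 12 were higher (7.64% each), beside 12.4% lower and 5.40% higher over all such sites. The smallest absolute difference past the threshold was 0.60 and the largest within it was 0.57. The threshold passes through a dense range, since 16 sites had an absolute difference between 0.55 and 0.65.

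**Figure D1:**
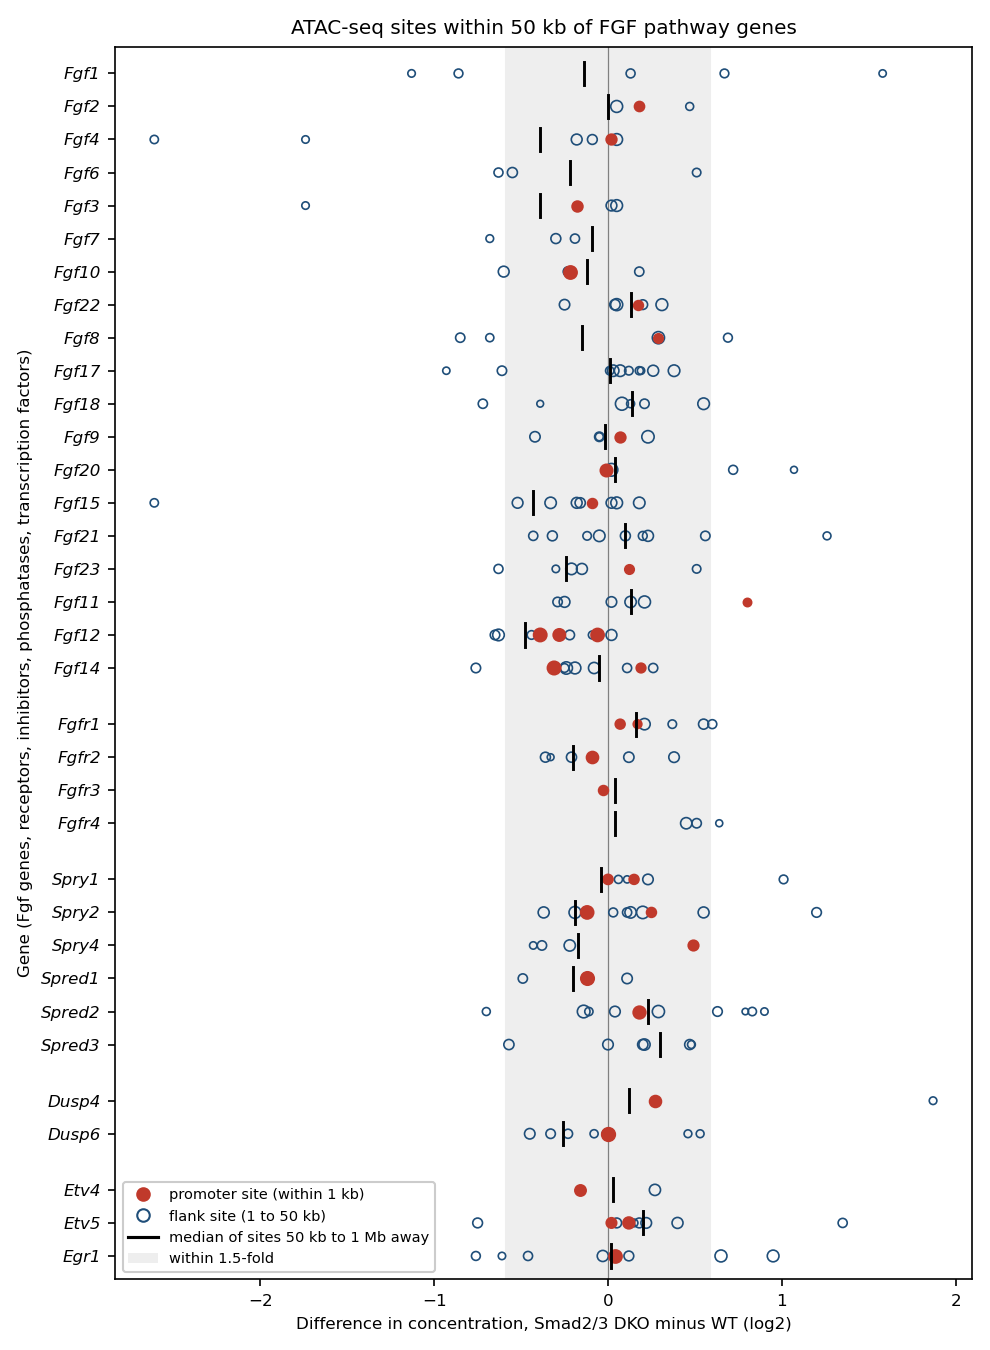
Difference in concentration (DKO minus WT, log2, x axis) of every site near each FGF pathway gene (y axis, ordered by role); filled circles are promoter sites, open circles flank sites, larger circles have a higher concentration, black bars are the median of sites 50 kb to 1 Mb away, and grey marks the range within 1.5-fold. The promoter sites lie between -0.39 and 0.80, while flank sites run from -2.61 to 1.87.

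Few promoter sites of the pathway passed the threshold, as was the case for promoter sites in general. A promoter site, with its midpoint within 1 kb of a TSS of the gene, was listed for 26 of the 34 genes, 33 sites in all. None was lower in DKO and 1 was higher, beside 4.17% lower and 3.69% higher over the 15001 sites within 1 kb of any TSS. The absolute difference was under 0.3 at 29 of the 33. The quartiles of the difference were -0.09 and 0.17, beside -0.16 and 0.17 over all promoter sites. The exception past the threshold was Fgf11, whose product stays inside the cell, with 3.60 in WT and 4.40 in DKO at a weak site 630 bp upstream of its TSS (difference 0.80). The next in size was Spry4, a Sprouty inhibitor, with 5.77 in WT and 6.26 in DKO (0.49).

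In the lower direction, the promoter sites farthest from 0 were those of Fgf12 (9.20 in WT and 8.81 in DKO, -0.39) and Fgf14 (9.32 and 9.01, -0.31), which encode FGF homologous factors that act on sodium channels. Strong sites differed less than weak ones over all listed sites: the middle 90% ran from -0.28 to 0.18 at a concentration of 9 to 10 and from -1.14 to 0.78 at 4 to 5. Each difference was therefore also ranked among all sites within the same unit of concentration. These promoter sites then stood at percentile 1.31 for Fgf12 and 3.79 for Fgf14. Other promoter sites of the same genes, at other TSSs, differed less: -0.28 and -0.06 for Fgf12 and 0.19 for Fgf14. With the local median of -0.48 subtracted, described below, the Fgf12 difference of -0.39 turned to 0.09. The strongest promoter, that of Dusp6, the cytoplasmic ERK phosphatase, had 9.45 in both genotypes. The promoter of Fgf4, the epiblast ligand, had 6.15 in WT and 6.17 in DKO, and that of Fgf8 had 4.85 and 5.14. No promoter site was listed for Fgf1, Fgf6, Fgf7, Fgf17, Fgf18, Fgf21, Fgfr4 or Spred3.

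The flanks held 37 of the 38 sites past the threshold. Of 155 flank sites, 19 (12.3%) were lower and 18 (11.6%) were higher, beside 16.7% and 9.92% over the 32686 sites whose nearest TSS lies 1 to 50 kb away. Of these 155 sites, 29 fell within 1 kb of the TSS of another gene, and 1 of them was lower and 1 higher. Of the other 126 flank sites, 18 (14.3%) were lower and 17 (13.5%) were higher. These are the closer match to the 16.7% and 9.92% of all flank sites, which lie on no promoter. In the distance classes that follow, pathway sites are placed by the TSS of the pathway gene, also where they lie on another promoter. All sites are placed there by the nearest TSS of any gene, so the shares are not fully alike. Between 1 and 5 kb 2 of 23 sites (8.70%) were lower and 4 (17.4%) higher, beside 15.6% and 8.85% of all sites at that distance. Between 5 and 20 kb 8 of 49 (16.3%) were lower and 5 (10.2%) higher, the same shares as over all sites. Between 20 and 50 kb 9 of 83 (10.8%) were lower and 9 (10.8%) higher, beside 17.5% and 10.2%. By annotation, 96 of the 188 sites are intergenic, 62 intronic, 16 in coding exons, 13 in UTRs and 1 in a non-coding exon.

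**Figure D2:**
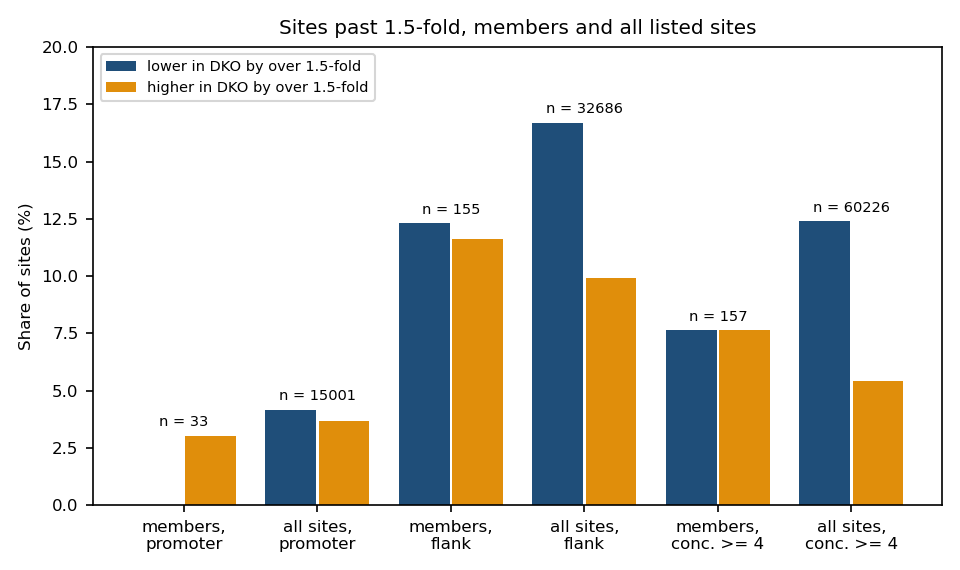
Share of sites (%, y axis) that were lower (dark) or higher (light) in Smad2/3 DKO by more than 1.5-fold, for the FGF pathway genes (members) and for all listed sites, by region and for sites with a concentration of at least 4; n is the number of sites. At flank sites the members stand at 12.3% lower and 11.6% higher, and all sites at 16.7% and 9.92%. The member flank includes 29 sites on promoters of other genes, and the flank of all sites includes no promoter sites.

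By role, the Fgf genes followed the imbalance of all listed sites (16.0% lower, 8.51% higher, median -0.08). Near the 19 Fgf genes 15 of 104 sites (14.4%) were lower and 7 (6.73%) were higher, with a median of -0.05. Near the 11 feedback genes 4 of 68 (5.88%) were lower and 10 (14.7%) were higher, with a median of 0.11. Of these 10, 4 lay near Spred2, where the median of sites 50 kb to 1 Mb away was 0.23, and 2 near Egr1. Near the receptors 0 of 16 were lower and 2 (12.5%) were higher, with a median of 0.19. At a concentration of at least 4, where 12.4% of all sites were lower and 5.40% higher, the counts were 10 lower and 4 higher of 88 for the Fgf genes, 2 lower and 7 higher of 55 for feedback genes, and 0 lower and 1 higher of 14 for receptors. The difference between these groups has no test here.

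The largest difference in the set lay in the Fgf3, Fgf4 and Fgf15 cluster on chromosome 7. The intergenic site printed first, 5653 bp downstream of the Fgf15 TSS and 40799 bp downstream of the Fgf4 TSS, had 4.83 in WT and 2.22 in DKO, which is 28.4 against 4.66 normalized reads (difference -2.61, percentile 0.237). Fgf15 is the ligand that in the adult gut signals to the liver, and it is also expressed in the embryonic brain. Another intergenic site of the cluster, chr7:144846330-144846540, 7823 bp downstream of the Fgf3 TSS, had 4.09 and 2.35 (-1.74), or 17.0 against 5.10 reads, so it is weak in both genotypes. The other sites of the cluster within reach of Fgf4 lay close to 0: the promoter of Fgf3 had a difference of -0.18, a site 3641 bp upstream of Fgf4 had 7.16 in WT and 7.21 in DKO, and the Fgf15 promoter had 5.36 and 5.27. The median over sites from 50 kb to 1 Mb away was -0.39 for Fgf3 and Fgf4 and -0.43 for Fgf15, so the neighbourhood of the cluster was lower in DKO as well. With the local median subtracted, the difference of -2.61 was -2.18.

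Fgf8, Fgf17 and Fgf18 are related ligands that bind the same receptors, and Fgf8 acts at gastrulation. Near these 3 genes 5 of 21 sites (23.8%) were lower and 1 (4.76%) was higher, beside 16.0% and 8.51% of all sites. Most of the 21 sites went the other way, since 15 had a higher DKO mean. A lower DKO mean was found at 28.6%, beside 57.4% of all sites, and the median difference was 0.12, beside -0.08. An intergenic site 3616 bp upstream of Fgf8 (chr19:45746290-45746730) had 5.23 in WT and 4.38 in DKO (-0.85, percentile 10.0). A coding exon site 5759 bp downstream of the Fgf8 TSS had 4.24 and 3.56 (-0.68, percentile 24.8). The site 6701 bp upstream, 30 bp from the TSS of Npm3, was the higher of the group with 4.07 and 4.76 (0.69, percentile 93.3). Near Fgf17 the site 5002 bp upstream (chr14:70647120-70647420) had 5.21 and 4.60 (-0.61, and -0.53 when centred), with a POU octamer match in the 500 bases around its midpoint. Near Fgf18 the site 33635 bp upstream (chr11:33180830-33181240) had 5.13 and 4.41 (-0.72, percentile 13.8). A site on the promoter of Npm1, 15440 bp upstream of Fgf18, had 6.79 and 7.34 (0.55, percentile 98.9).

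Among the Fgf7 family, which signals to epithelia, 3 of the 18 sites near Fgf3, Fgf7, Fgf10 and Fgf22 were lower (16.7%, beside 16.0% of all sites) and none was higher. The intronic site of Fgf10 48521 bp downstream of its TSS (chr13:118762980-118763460) had 6.54 in WT and 5.94 in DKO (-0.60), a call that was lost when centred on the median of all sites (-0.52) or with the local median subtracted (-0.48). The Fgf10 promoter site, 2940 bp long, had 9.01 and 8.79. Near Fgf7 a weak site had 3.90 and 3.22 (-0.68), and its strongest site, 18793 bp upstream, had 5.56 and 5.26 (-0.30). The Fgf3 promoter had 6.36 and 6.18. Near Fgf22 none of 6 sites passed, and its promoter had 5.18 and 5.35. The largest difference was 0.31, at 7.11 in WT and 7.42 in DKO, 273 bp from the TSS of Rnf126.

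Near Fgf12 all but 1 of the 10 sites had a lower DKO mean, with a median of -0.25. Past the threshold were an intronic site (chr16:28517740-28518430) with 7.35 in WT and 6.72 in DKO (-0.63, percentile 2.73) and an intergenic site 40052 bp upstream, with 5.36 and 4.71 (-0.65). The local median was -0.48, the lowest of the 34 genes, and with it subtracted these differences became -0.15 and -0.17. Of 9 Fgf14 sites 1 was lower, the intergenic site 32553 bp upstream with 5.36 and 4.60 (-0.76), and the local median there was -0.05. The 6 Fgf11 sites had a median of 0.08.

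**Figure D3:**
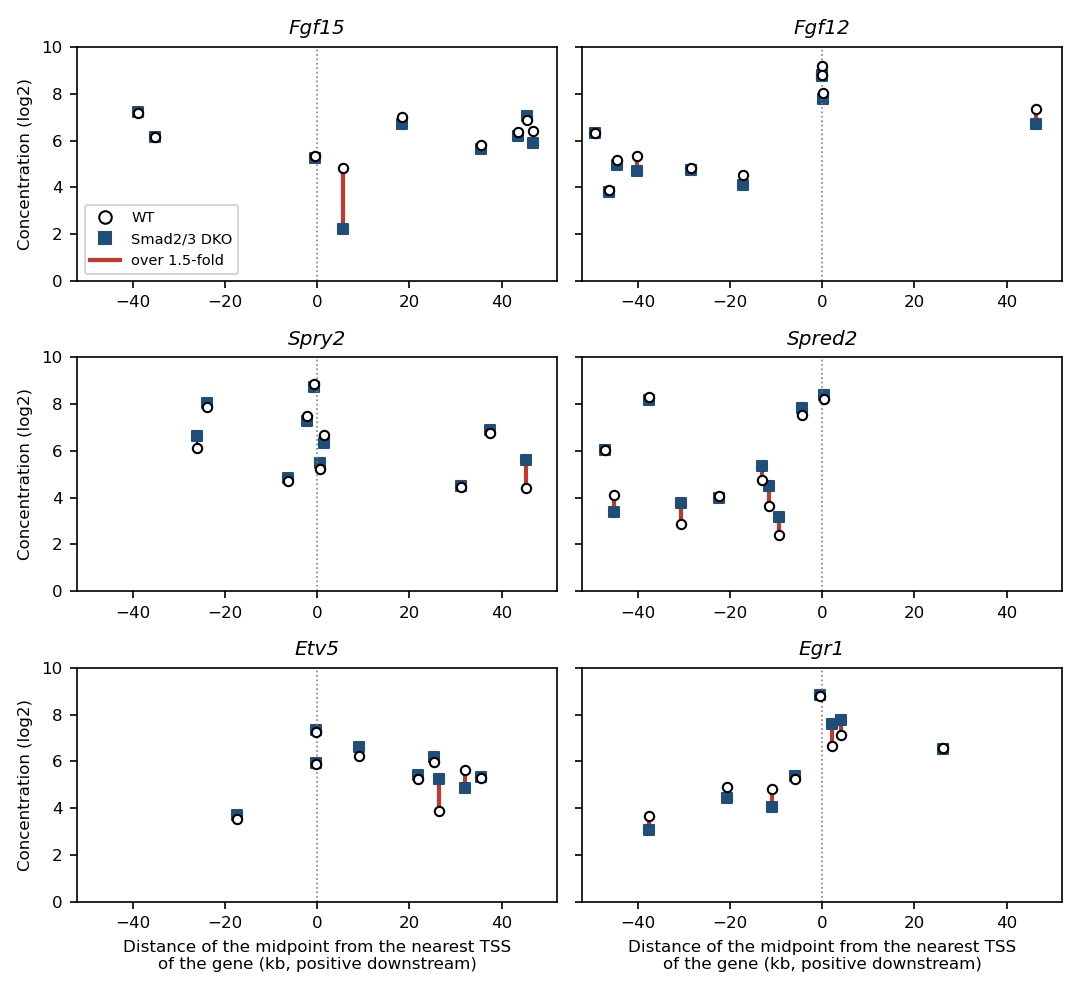
Concentration (log2 mean normalized reads, y axis) of each site in WT (open circles) and Smad2/3 DKO (filled squares) against its distance from the nearest TSS of the gene (kb, x axis) for 6 genes; thick lines mark differences over 1.5-fold. The promoter symbols overlap in each gene, and the marked sites lie away from the dotted TSS line, such as 4.83 and 2.22 at 5.65 kb from Fgf15.

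The remaining ligands gave a mixed picture. Fgf1, a broadly acting ligand that binds all the receptors, had 5 sites, all under 5 in concentration and without a promoter site. They ran from -1.13 to 1.58. With a concentration of at least 4 there was an intronic site at 4.81 in WT and 3.95 in DKO (-0.86, percentile 9.75). The others were a site 21936 bp upstream at 4.52 and 4.65 (0.13) and a site 42311 bp upstream at 3.99 and 4.66 (0.67, percentile 92.9). Fgf2, the ligand supplied in the medium, had 3 sites, none past the threshold, with a promoter at 5.46 and 5.64. Near Fgf6, a muscle ligand, and Fgf23, a hormone of phosphate balance, a shared intergenic site (chr6:127064730-127064990) had 4.90 and 4.27 (-0.63, percentile 17.1), where the local medians were -0.22 and -0.24. The call was lost when centred (-0.55) or with the local median subtracted (-0.39), and the Fgf23 promoter had 4.96 and 5.08. Fgf9 had none of 5 sites past the threshold, its largest difference being -0.42 (6.01 and 5.59, 1741 bp upstream), and a promoter at 6.09 and 6.16. Fgf20, its relative, had an intergenic site 9747 bp upstream (chr8:40296580-40296820) with 4.17 and 4.89 (0.72) and a weak site at 2.46 and 3.53 (1.07), beside a promoter at 7.96 and 7.95. Fgf21, a metabolic hormone, had 1 site past the threshold among 9, a weak one in an intron of Bcat2 with 2.99 and 4.25 (1.26). Just within the threshold was a site at 4.61 and 5.17 (0.56), 97 bp from the TSS of A030001D20Rik.

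Of the 16 receptor sites none was lower, beside 16.0% of all sites, and 2 were higher, beside 8.51%. Fgfr1, the main receptor of the epiblast, had 6 sites, each with a DKO mean above WT, from 0.07 at the promoter (5.30 in WT and 5.37 in DKO) to 0.60 at an intronic site 26336 bp downstream of the TSS (chr8:25544970-25545220, 4.24 and 4.84). The latter holds a POU octamer and an Otx2 match around its midpoint. The local median was 0.16, and with it subtracted the difference was 0.43. Fgfr4 had 3 sites, each higher in mean, at 4.67 and 5.18 on the promoter of Zfp346, at 6.50 and 6.95 with Nsd1 as the nearest gene and, past the threshold but weak, at 2.79 and 3.43 (0.64). Fgfr2, prominent in extra-embryonic cells, had 6 sites between -0.36 and 0.38, the latter in an intron 2348 bp from the TSS (5.80 and 6.18), and a promoter at 7.59 and 7.50. Fgfr3 had a promoter site only, at 5.36 and 5.33.

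The Sprouty and Spred genes, which encode inhibitors of the pathway between receptor and ERK, had 39 sites, of which 1 (2.56%) was lower and 6 (15.4%) were higher, beside 16.0% and 8.51% of all sites. At a concentration of at least 4 the counts were 0 lower and 4 higher of 32, beside 12.4% and 5.40%. Around Spry2 all 10 sites passed a concentration of 4, and the intergenic one lying 45314 bp downstream had 4.41 in WT and 5.61 in DKO, or 21.3 against 48.8 reads (1.20, percentile 99.4). The local median of Spry2 was -0.19, of the opposite sign. A site 26146 bp upstream had 6.11 and 6.66 (0.55, percentile 97.2), and the promoter, among the strongest of the set, had 8.87 and 8.75. Of the 10 sites 4 hold an AP-1 match around the midpoint, both of these and those 31134 bp downstream (0.03) and 6251 bp upstream (0.11).

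Spry1 had 1 site past the threshold among 6. It lies in the coding exon, 3198 bp downstream of the TSS, with 3.75 in WT and 4.76 in DKO (1.01, percentile 97.6), whereas the promoter site nearest to it had 5.57 in both genotypes. Spred2 had 4 higher sites and 1 lower site among 10. The higher ones lie 9317, 11577, 13072 and 30637 bp upstream of the TSS, and those with a concentration of at least 4 had 4.74 and 5.37 (0.63) and 3.66 and 4.49 (0.83). Each holds an AP-1 match, as does the site 22407 bp upstream (-0.11). The local median of Spred2 was 0.23, about the median of its own sites (0.24), and with it subtracted the 0.63 became 0.40. The Spred2 promoter had 8.22 and 8.40. Spry4, Spred1 and Spred3 had no site past the threshold. Spred1 had a strong promoter at 9.27 and 9.15 and its largest difference 28001 bp upstream, at 5.06 and 4.57 (-0.49). The lowest Spred3 site had 5.91 and 5.34 (-0.57) in a neighbourhood with a local median of 0.30, the highest of the 34 genes.

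Near the phosphatase genes 0 of 10 sites were lower and 1 (10.0%) was higher, beside 16.0% and 8.51% of all sites. Dusp4, which acts on ERK in the nucleus, had 2 sites: its promoter with 7.28 in WT and 7.55 in DKO (0.27) and a weak intronic site 1505 bp downstream of the TSS (chr8:34808950-34809280) with 2.35 and 4.22, or 5.10 against 18.6 reads (1.87). The latter is the largest difference in the higher direction near any of the 34 genes, and it rests on few reads in WT. Dusp6 had 8 sites, none past the threshold, from -0.45 (6.19 and 5.74, 35779 bp downstream) to 0.53.

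Etv5, a transcription factor switched on by ERK, had sites in its introns that went in opposite directions. With 5755 bp between their midpoints, the site at chr16:22406000-22406460 had 5.61 in WT and 4.86 in DKO (-0.75) and that at chr16:22411810-22412160 had 3.89 and 5.24, or 14.8 against 37.8 reads (1.35, percentile 99.2). The other 7 Etv5 sites lay between 0.02 and 0.40, and the stronger promoter site had 7.24 and 7.36. The related Etv4 had 2 sites, neither past the threshold, with an intronic site at 6.52 and 6.79 (0.27) and a promoter at 6.81 and 6.65.

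Egr1, an immediate early gene of ERK signaling, had 2 strong sites with large differences for their concentration. The promoter had 8.79 in WT and 8.83 in DKO. The site over the gene body, 2400 bp long with its midpoint 2123 bp downstream of the TSS, had 6.66 and 7.61, or 101 against 195 reads (0.95, percentile 99.9). The site at the 3' end of the gene, 4158 bp from the TSS, had 7.13 and 7.78, or 140 against 220 reads (0.65, percentile 99.4). Upstream of the gene, an intergenic site at 10852 bp had 4.83 and 4.07 (-0.76, percentile 12.5) with FoxH1, Smad and Tead matches around its midpoint. A weak site at 37617 bp had 3.68 and 3.07 (-0.61, percentile 27.7). The local median was 0.02. The FoxH1 string was found at 3 of 155 flank sites of the pathway (1.94%), beside 1.97% of all flank sites. The others lie near Fgfr1 and Fgf21 and had a higher DKO mean (0.55 and 0.23).

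**Figure D4:**
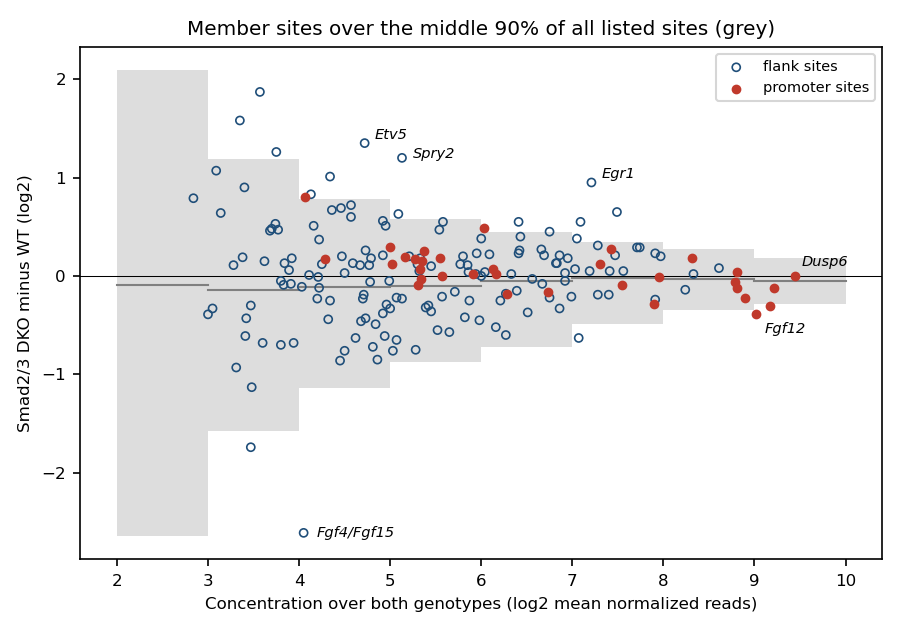
Difference (DKO minus WT, log2, y axis) of each site near the FGF pathway genes against its concentration (log2, x axis); grey steps are the middle 90% of all listed sites per unit of concentration and grey lines their medians. The Egr1 point at 0.95 and the Fgf4/Fgf15 point at -2.61 lie outside the band, and the Dusp6 promoter lies at 0.00.

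Of the 188 sites, 20 (10.6%) lay outside the middle 90% of sites of like concentration, beside 9.85% of all listed sites. Of these, 5 lay below and 15 above. The range runs from the 5th to the 95th percentile, so about 5% of all listed sites lie on each side by construction. Those above include neighbouring sites near Egr1 and near Spred2 and sites on promoters of Npm1 and Dmtn. The split was not tested. The lower sites near Fgf1, Fgf6, Fgf7, Fgf8, Fgf10, Fgf14, Fgf17, Fgf18, Etv5 and Egr1 lay inside that range. Of the 33 promoter sites 4 (12.1%) lay outside (Fgf11 and Spry4 above, Fgf12 and Fgf14 below), beside 5.89% of all promoter sites. No site past the threshold was found near 10 of the genes: Fgf2, Fgf9, Fgf22, Fgfr2, Fgfr3, Spry4, Spred1, Spred3, Dusp6 and Etv4.

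The sites near FGF pathway genes were also compared with all listed sites in their letters. Promoter sites had a median GC content of 64.5% and a width of 890 bp, beside 61.7% and 750 bp over all promoter sites. Flank sites had 53.0% and 410 bp, beside 50.2% and 350 bp. In the 500 bases around the midpoint, the POU octamer was found at 12 of 155 flank sites (7.74%), beside 4.30% of all flank sites, and the Otx2 string at 22.6% beside 16.0%. The Ets string was found at 1 of 33 promoter sites (3.03%), that of Egr1, beside 18.5% of all promoter sites. The Smad string was found at 12 of the 19 lower sites (63.2%), at 8 of the 19 higher sites (42.1%) and at 36.0% of all sites. The AP-1 string was found at 4 of the lower sites, at 6 of the higher sites (31.6%) and at 13.6% of all sites. These are counts of few sites with no test, and a short string is found in part by base composition. Of 29 RefSeq promoters found for 24 of the genes (250 bases before to 50 after the TSS), 4 held the Smad string, those of Fgf9, Fgf11, Fgf14 and Fgf21, beside 21.0% of all promoters.

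Another 55 genes of the FGF and ERK pathway, the co-receptors, adaptors, Ras, Raf, MEK and ERK kinases, other phosphatases and target genes, gave 325 sites, none shared with the 34 genes. Of these 33 (10.2%) were lower and 29 (8.92%) were higher, beside 16.0% and 8.51% of all listed sites. The median difference was -0.03, beside -0.08. Their 60 promoter sites held 1 lower and 1 higher (1.67% each), beside 4.17% and 3.69% of all promoter sites. Among sites with a concentration of at least 4, the lowest differences lay near Kl, the co-receptor of Fgf23, at 7.18 in WT and 5.72 in DKO (-1.46, chr5:150970400-150971010) and at 4.61 and 3.25 (-1.36), and near Hs2st1, a heparan sulfate sulfotransferase, at 4.82 and 3.82. The highest lay near Fgfrl1, the receptor without a kinase domain, at 3.27 and 4.50 (1.23), near Fosl1, an AP-1 subunit, at 4.25 and 5.25 (1.00), and near Shc1, an adaptor, at 4.58 and 5.50 (0.92).

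The Smad3 part of the genotype was visible in the sites. That at the targeted Smad3 promoter had 5.42 in WT and the lowest listed value, -0.10, in DKO. According to the paper, a region around the first exon of Smad3 was removed, so absent DNA and closed chromatin cannot be told apart there. No Smad2 site is described here. A promoter site was listed for 5 of 6 epiblast genes, the exception being Otx2. It was also listed for 4 of 4 naive pluripotency, 3 of 3 extra-embryonic endoderm and 3 of 3 trophoblast genes, so open promoters do not separate these cell types here, and the identity of the cells was not checked by them. None of the 188 sites was at the lowest listed value in either genotype. Fewer cells with an open site and a less open site in every cell cannot be told apart in these pooled cells.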

How the data were processed

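ATAC-seq of 3 WT and 3 Smad2/3 DKO differentiations was read from the deposited table of 75880 sites. Per the paper's methods and the submitters' processing notes, the authors used Bowtie2 to map the read pairs to mm10, removed duplicates with SAMtools, called sites with DANPOS2 against the Tn5 genomic DNA control and counted reads with DiffBind. The log2 concentrations the authors deposited are means per genotype, and the DiffBind normalization and versions are not given in the sources used here. The 3 columns of the authors' own comparison (fold change, p-value and FDR) were not used, and with no value per library the differences were described without a test. Reads were taken as 2 to the power of the concentration.

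TSSs came from 45756 curated RefSeq transcripts of GRCm38.p6, the same build. A distance is that of the midpoint from the closest TSS of the gene, positive downstream. Values are given for every site past 1.5-fold with a concentration of at least 4, the strongest promoter site of a gene and, where none passed, its largest difference. Other sites named, and the weak sites past 1.5-fold, were chosen after their values were seen. The sequences of 2 further sites are not reported here. The members and lists were chosen with earlier results of these data known. The site search was tested on simulated data. Python 3.11.15, pandas 2.3.3 and pysam 0.24.0 were used. Alternatives were other folds, distances, concentrations, transcripts and centrings.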

Additional observations from a re-analysis of the deposited data

How the results depend on the processing

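The counts below are lower and then higher sites of the FGF pathway genes, 19 and 19 as reported. They were 3 and 7 at 2-fold, 12 and 12 at a concentration of at least 4, 5 and 4 at a concentration of at least 5, 10 and 10 within 20 kb, 44 and 32 within 100 kb (343 sites), and 12 and 13 where the nearest TSS of any gene was that of the member. Centring on the median of all sites (-0.08) gave 13 and 26, and subtracting the local median, an alternative chosen after seeing the data, gave 15 and 22. Neither has a matching count over all listed sites. Counting a site once per gene or using predicted transcripts gave 22 and 19, and 21 and 19. The flank counts, 19 and 18 as reported, were 3 and 7 at 2-fold and 12 and 11 at a concentration of at least 4. The promoter counts, 0 and 1 as reported, were 0 and 0 at 2-fold and with a promoter of 500 bp, 1 and 2 with a promoter of 2 kb, and 0 and 2 with the local median subtracted. The median difference of 0.04 was 0.03 at a concentration of at least 4, 0.12 when centred, 0.02 for sites nearest to the member and 0.06 with the local median subtracted. Fewer or more sites counted give the smaller and larger numbers by construction.

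Of 59 sites named by the rule, 7 crossed the 1.5-fold threshold when centred (those of Fgf6, Fgf10, Fgf17 and both of Fgf12 no longer passed, and those of Fgf21 and Fgfr4 now did). With the local median subtracted 8 crossed (those of Fgf6, Fgf10, Fgfr1, Spred2 and both of Fgf12 no longer passed, and those of Spry4 and Spred3 now did). No paired analysis was possible because the values are means per genotype and carry no differentiation number, and leaving out a differentiation was not run for the same reason. The depth per library is unknown, and sites of few reads, such as those of Dusp4 and Fgf3, have the least certain differences.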
